A study of Homo sapiens with 1 sample.

Results

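The 5 genes described here, SCARB1, BHLHE41, ITPR2, SSPN and DPF3, lie at loci where inherited variants have been associated with the risk of renal cell carcinoma. Their accessible sites were taken from ATAC-seq, in which the Tn5 transposase cuts open chromatin, of 786-O cells, an established line of human clear cell renal cell carcinoma that carried an empty vector according to the labels. The peak names carry a tag for wild type in its place, and the label was used. The control was 1 library with no replicate, and its counterpart, cells overexpressing DPF3a, is not analysed here. A peak was assigned to a locus when its summit, the base of highest read depth, lay inside the gene record of GENCODE release 44 (hg38) or at most 100 kb from either end. This gave 106 peaks out of 88676 in the list. There were 36 in the SCARB1 locus, 13 in that of BHLHE41, 25 in that of SSPN, 38 in that of ITPR2 and 19 in that of DPF3. Of the 106 peaks, 53 had their summit inside 1 of the genes and 53 lay outside all of them, and 25 belonged to more than 1 locus because BHLHE41, SSPN and ITPR2 are neighbours. Since there was a single library, no groups could be compared and no p-value is given.

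Most variants found by association studies lie outside coding sequence, and a common way for such a variant to act is through an enhancer, a stretch of open chromatin at which transcription factors bind and raise transcription of a gene that can be far away. In clear cell carcinoma the loss of VHL, a subunit of the ligase that marks hypoxia-inducible factors (HIFs) for degradation, leaves these factors active, and they bind a short core sequence called the hypoxia response element (HRE). The genes differ in function. SCARB1 encodes a scavenger receptor for high-density lipoprotein that takes up cholesteryl esters, and clear cells are named after the lipid and glycogen that they store. BHLHE41 encodes a basic helix-loop-helix repressor that binds E-boxes and takes part in the circadian clock. ITPR2 encodes an inositol trisphosphate receptor, a calcium channel of the endoplasmic reticulum. SSPN encodes sarcospan, a membrane protein of the dystrophin-glycoprotein complex. DPF3 encodes a PHD-finger protein that joins the BAF form of SWI/SNF chromatin remodellers. The position of the risk variants themselves was not analysed here, and an accessible site is not shown to be an enhancer by this assay.

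The peak height is given as fold enrichment, a ratio that the authors' peak caller computed from the pileup, the number of read fragments over the summit, relative to one genome-wide background level. A pileup of 9, the lowest in the list, corresponds to a fold of 5.15. The lowest score in the list was 52 where the caller's threshold alone would allow 13.01, and weaker peaks are not analysed here, so a stretch without a peak is one without a peak of at least that score. Values in parentheses after a fold are the exact Poisson 95% interval of its pileup, and they cover counting error only. The median fold of the 106 peaks was 10.6, compared with 10.8 over all peaks. The medians were 10.3 on chromosome 12, which carries 4 of the genes, and 10.3 on chromosome 14, which carries DPF3. Copy number was not analysed here. As a check of the label, promoter peaks were found at 5 of 6 genes that mark renal epithelium (PAX8, PAX2, CDH16, KRT8 and KRT18). They were also found at 1 of 2 genes that are high in clear cell carcinoma (VIM, not CA9), and at 0 of 2 leukocyte, 0 of 2 endothelial and 0 of 1 hepatocyte genes. The endothelial genes PECAM1 and CDH5 had peaks elsewhere in the gene, with folds of up to 45.9 and 40.2.

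The sequences at the sites that the results turn on are shown first, as the plus strand of hg38 and 5′ to 3′. Capitals mark matches, on either strand, to the HRE core (ACGTG or GCGTG), the E-box (CACGTG), the AP-1 site (TGACTCA or TGAGTCA), TEAD (GGAATG), RUNX (TGTGGT) or SP/KLF (CCCCGCCC). An E-box also counts as an HRE core, since it contains ACGTG. The promoter sequences, shown for ITPR2 and DPF3, are the 121 bases just upstream of the outermost transcription start site (TSS) of the gene inside the peak.
ITPR2 promoter at the 5′ end of the gene, chr12:26833195-26833315: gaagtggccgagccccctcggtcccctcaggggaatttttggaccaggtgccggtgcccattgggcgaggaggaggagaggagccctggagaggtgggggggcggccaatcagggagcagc
ITPR2 promoter inside the gene, chr12:26630715-26630835: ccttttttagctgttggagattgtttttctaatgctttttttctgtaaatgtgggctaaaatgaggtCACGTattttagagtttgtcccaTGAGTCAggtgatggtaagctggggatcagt
DPF3 promoter, chr14:72894102-72894222: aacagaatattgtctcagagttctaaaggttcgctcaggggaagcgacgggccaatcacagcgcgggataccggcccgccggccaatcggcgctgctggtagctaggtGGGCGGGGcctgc
The DPF3 promoter held 1 SP/KLF site in these 121 bases, whose G and C content was 62.8%. The ITPR2 promoter at the 5′ end held none of the motifs at 68.6%. The inner ITPR2 promoter stood apart, with 38.8% G and C, an HRE core and an AP-1 site.

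The next set gives 121 bases around the summit of the strongest intronic peak of each gene, of the strongest intronic peak with an HRE core where that is another one, and of the strongest peak in intron 1 of DPF3, the intron in which the DPF3 risk locus has been placed. The last of these choices was made after the values were seen.
SCARB1 intron 1, strongest, chr12:124838449-124838569: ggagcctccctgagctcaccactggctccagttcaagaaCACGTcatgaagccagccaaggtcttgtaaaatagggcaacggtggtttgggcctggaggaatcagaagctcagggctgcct
SSPN, strongest, chr12:26274849-26274969: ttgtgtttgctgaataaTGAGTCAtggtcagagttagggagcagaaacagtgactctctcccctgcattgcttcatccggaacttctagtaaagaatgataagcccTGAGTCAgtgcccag
SSPN, strongest with an HRE core, chr12:26156537-26156657: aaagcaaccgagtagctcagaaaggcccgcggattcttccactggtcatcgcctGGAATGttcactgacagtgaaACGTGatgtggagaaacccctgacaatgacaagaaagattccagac
ITPR2 intron 10, strongest, chr12:26691694-26691814: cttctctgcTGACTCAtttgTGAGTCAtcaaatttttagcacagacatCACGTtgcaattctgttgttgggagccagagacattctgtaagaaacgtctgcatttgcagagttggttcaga
DPF3 intron 8, strongest, chr14:72665396-72665516: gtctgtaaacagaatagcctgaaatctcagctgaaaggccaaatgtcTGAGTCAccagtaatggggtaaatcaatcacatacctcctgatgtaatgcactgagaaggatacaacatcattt
DPF3 intron 3, strongest with an HRE core, chr14:72745698-72745818: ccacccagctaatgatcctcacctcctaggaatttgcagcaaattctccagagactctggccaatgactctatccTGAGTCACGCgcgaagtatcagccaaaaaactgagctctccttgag
DPF3 intron 1, strongest of this intron, chr14:72801495-72801615: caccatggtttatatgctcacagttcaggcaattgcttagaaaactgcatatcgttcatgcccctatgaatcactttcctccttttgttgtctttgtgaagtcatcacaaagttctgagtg
In this set an AP-1 site is present at the strongest SSPN peak, at ITPR2 intron 10 and at DPF3 introns 3 and 8. These sites were picked by height or motif, and the shares over all peaks are given with the motif counts. In intron 3 of DPF3 the AP-1 site and the HRE core overlap. The intron 1 site of DPF3 shows none of the motifs.

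To ask whether the genes themselves had open promoters, summits were counted in a window that began 1 kb before the TSS of any transcript and ended 100 bp after it. A promoter peak was present at 3 of the 5 genes, compared with 61.4% of all 20033 protein-coding genes. SCARB1 (chr12:124776856-124882668, minus strand) had its main promoter peak, of fold 24.7 (18.3 to 32.7), with the summit in exon 1 of the canonical transcript. Another, of fold 6.70 (3.71 to 11.3), lay 0.976 kb before the outermost TSS, near the edge of the window, and did not cover that TSS. ITPR2 (chr12:26335352-26833194, minus strand) had a peak of fold 24.7 (18.3 to 32.7) at its 5′ end, 88 bp upstream of the TSS. A higher one of fold 36.6 (28.6 to 46.1) lay in intron 22, at the TSS of a shorter transcript, 202 kb into the gene. DPF3 (chr14:72609034-72894101, minus strand) had 1 promoter peak of fold 20.1 (14.4 to 27.4). The study describes DPF3 as almost undetectable in 786-O cells, and expression was not analysed here. The counting intervals of the SCARB1, DPF3 and 5′ ITPR2 promoters overlap, so their order is not resolved. Among protein-coding genes with a promoter peak, the highest promoter fold of DPF3 was above 34.7% of the others, that of SCARB1 above 46.5% and that of ITPR2 above 70.5%.

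BHLHE41 (chr12:26120030-26125037, minus strand) and SSPN (chr12:26121991-26299290, plus strand) had no summit in a promoter, but both had open chromatin next to a TSS. A wide peak of 2220 bp covered 2 TSSs of BHLHE41, with its summit 1121 bp upstream of the canonical one, just outside the window. Its fold was 29.9 (22.8 to 38.6), and the summit lay at the promoter of the long noncoding RNA ENSG00000256894. At SSPN, a peak of fold 29.4 (22.3 to 38.0) had its summit 297 bp downstream of the TSS of one of its transcripts, and a peak of fold 6.70 (3.71 to 11.3) lay 391 bp downstream of the canonical TSS. When 1 kb on either side of each TSS was taken as promoter, all 5 genes had a promoter peak. For BHLHE41 the peak gained was not the wide one. It was a peak of fold 10.3 with its summit in exon 5, 2.19 kb downstream of the canonical TSS. That peak covered another TSS of BHLHE41. It also lay 791 bp downstream of a TSS of SSPN, so the wider window assigns it to both genes.

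**Figure D1:**
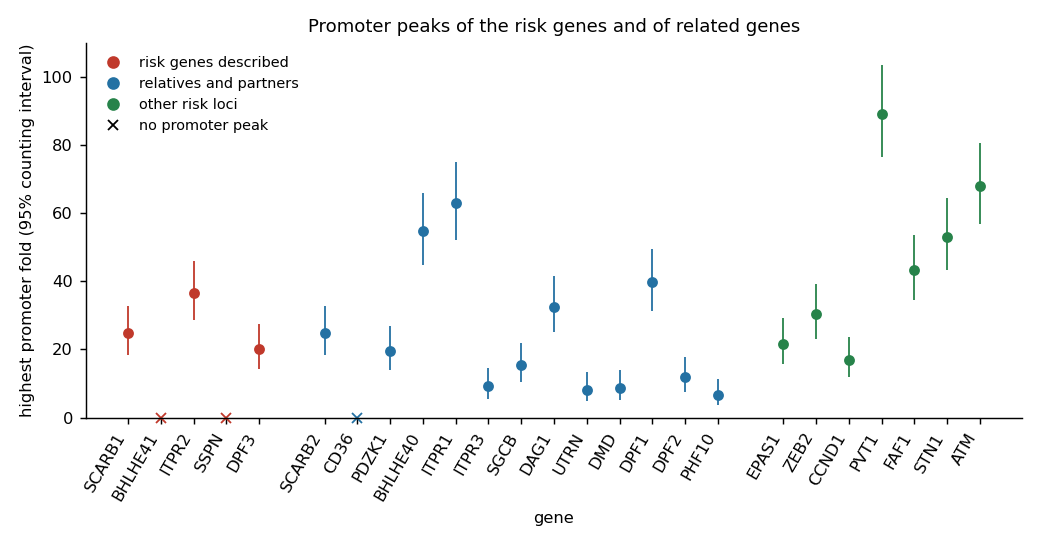
Highest fold enrichment of a promoter peak (vertical axis, with 95% counting interval) for the 5 risk genes (red), their relatives and partners (blue) and genes at other renal cancer risk loci (green). Crosses at 0 mark BHLHE41, SSPN and CD36, which had no promoter peak; ITPR1 reached 62.9 and PVT1 89.1, above the 36.6 of ITPR2.

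The promoters of relatives and known partners were set beside them. Of 13 such genes, 12 had a promoter peak, as had 7 of 7 genes at other loci of renal cancer risk. The share over all protein-coding genes was 61.4%. Counts with the wider window, in which every risk gene had a promoter peak, are not reported here for these lists. BHLHE40, the paralogue of BHLHE41 that is also a clock repressor, had a promoter fold of 54.6 (44.8 to 66.0). Among the inositol trisphosphate receptors, the fold was 62.9 (52.3 to 75.01) at ITPR1 and 9.28 (5.62 to 14.5) at ITPR3, with the 36.6 of ITPR2 between them and no overlap of the 3 intervals. ITPR1 held 24 summits inside the gene, as many as ITPR2, and ITPR3 held 5. SCARB2, a lysosomal relative of SCARB1, had the same fold as SCARB1, 24.7, whereas the fatty acid receptor gene CD36 had no promoter peak. PDZK1, whose product binds SCARB1 in the membrane, had a fold of 19.6 (13.9 to 26.8). For the other genes of the D4 family, the fold was 39.7 (31.4 to 49.5) at DPF1 and 11.9 (7.62 to 17.7) at DPF2. At PHF10, a more distant relative, it was 6.70 (3.71 to 11.3). Partners of sarcospan ranged from 8.24 (4.84 to 13.3) at UTRN to 32.5 (25.01 to 41.5) at DAG1. At the other risk loci, the fold was 21.6 at EPAS1, which encodes a HIF subunit, 17.0 at CCND1, 30.4 at ZEB2, 43.3 at FAF1, 53.1 at STN1, 68.0 at ATM and 89.1 at PVT1. The SCARB2, FAF1 and ATM peaks also lay at the promoters of FAM47E, CDKN2C and NPAT, and those of UTRN, PHF10 and PVT1 were not at the canonical TSS.

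Away from promoters the loci differed in where their sites lay. Over the 106 peaks, 49 were intronic (46.2%; exact 95% interval, 36.5 to 56.2), 39 intergenic (36.8%; 27.6 to 46.7), 14 at promoters (13.2%; 7.41 to 21.2) and 4 exonic (3.77%; 1.04 to 9.38). The shares over all peaks were 48.6%, 26.7%, 19.4% and 5.29%. Of the 39 intergenic peaks, 28 were in the SCARB1 locus, and 44 of the 49 intronic peaks were inside the 5 genes. Of the 14 promoter peaks, 5 belonged to the risk genes and 9 to other genes of the loci, among them DCAF4. The map of folds by distance from the TSS shows this layout.

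**Figure D2:**
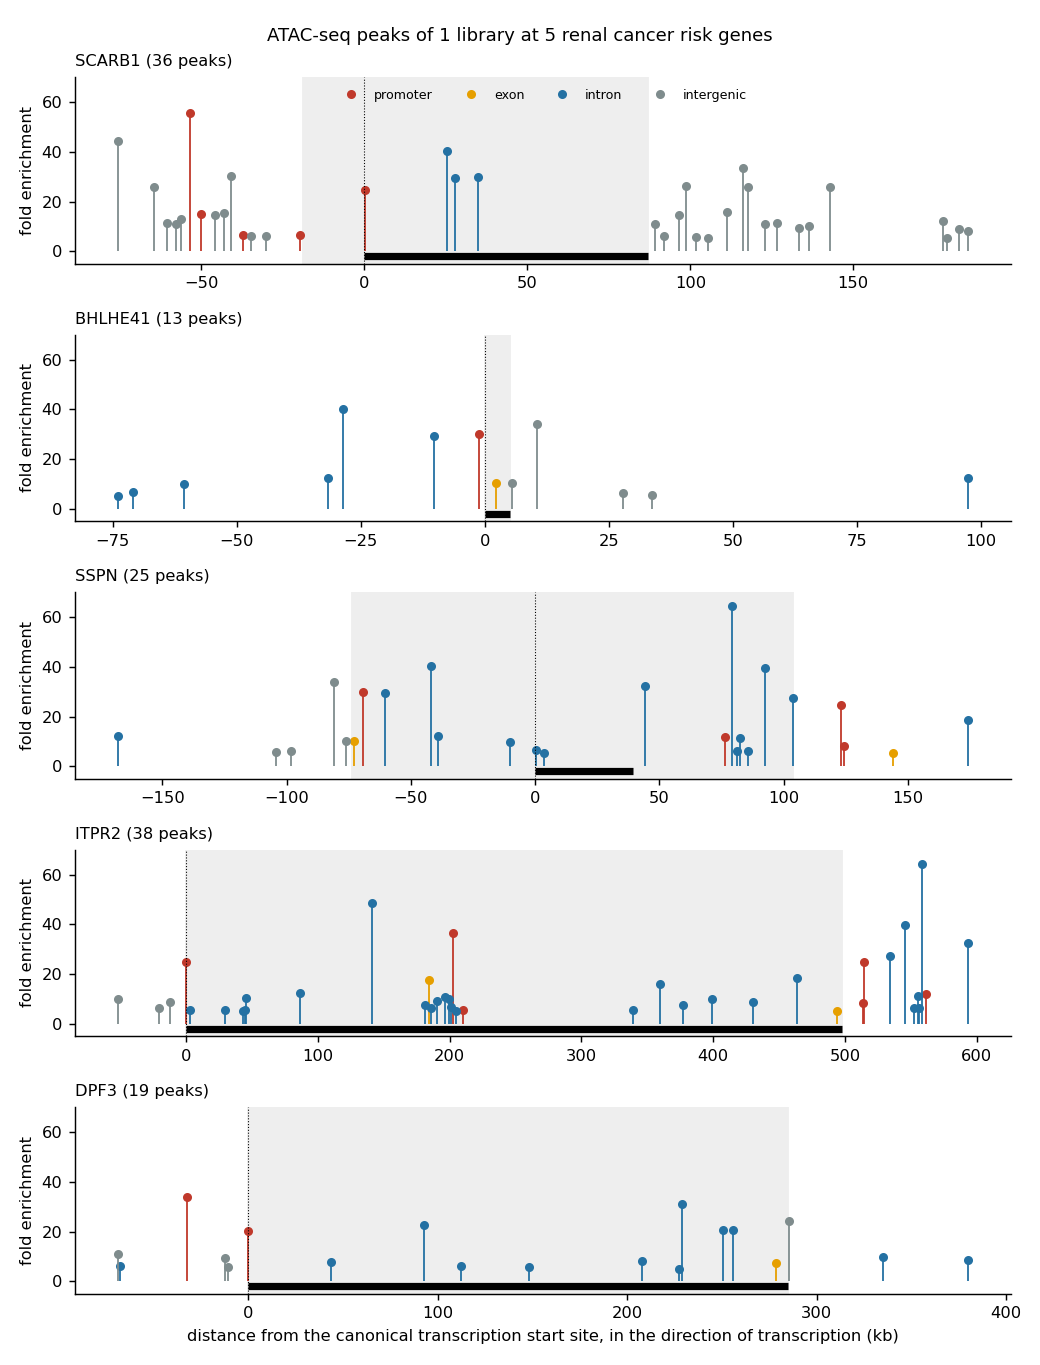
Fold enrichment of each peak (vertical axis) against the distance of its summit from the canonical TSS in the direction of transcription (horizontal axis, kb), one panel per gene and coloured by the class of the summit. Grey marks the gene record and the black bar the canonical transcript. SCARB1 has 3 intronic peaks and 28 intergenic ones, ITPR2 a cluster around the inner promoter 202 kb into the gene, and the highest peak, of fold 64.4, lies in the SSPN record.

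SCARB1 held 4 summits, or 3.78 per 100 kb (1.03 to 9.68), above 59.5% of the protein-coding genes of at least 50 kb, whose median was 3.03 per 100 kb. Their folds were from 24.7 to 40.2. All 3 intronic peaks lay in intron 1, which is 45.9 kb long and makes up 52.7% of the canonical transcript, and introns 2 to 12 had none. The strongest, at chr12:124838004-124838856, was 25.4 kb downstream of the canonical TSS with a fold of 40.2 (31.8 to 50.1), higher than 94.6% of all intronic peaks. The peaks at 27.7 kb and 35.0 kb had folds of 29.4 (22.3 to 38.0) and 29.9 (22.8 to 38.6). The intervals of the 3 sites overlap. The first pair held HRE cores within 50 bp of the summit, 1 at the strongest peak and 3 at the peak of fold 29.4, which also had an AP-1 site. The sequence around the summit of that peak is given because it holds both kinds of site.
SCARB1 intron 1, HRE cores and AP-1, chr12:124836143-124836263: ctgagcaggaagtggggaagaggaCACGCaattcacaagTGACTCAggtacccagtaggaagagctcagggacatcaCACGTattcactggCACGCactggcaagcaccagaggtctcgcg
A stretch of 52.0 kb without a summit followed, up to the end of the gene.

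Beyond its 3′ end, SCARB1 was followed by 18 intergenic peaks over 96.3 kb. Their folds ranged from 5.15 to 33.5 with a median of 10.8. An AP-1 site was found at 5 of the 18, compared with 18.0% of all peaks outside promoters. An HRE core was found at 1 of the 18, compared with 13.4%. The strongest was 29.2 kb past the gene, with a fold of 33.5 (25.9 to 42.6) and an AP-1 site. Upstream of SCARB1 there were 14 peaks over 55.9 kb, and some of them lay at promoters of other genes. The strongest intergenic peak of this side had a fold of 44.3 (35.5 to 54.7) and a width of 2560 bp. Nearer to SCARB1, a peak of fold 30.4 (23.2 to 39.2) held an E-box. Crowding was measured as the number of other summits within 25 kb to each side. Its median was 9 in the SCARB1 locus, compared with 3 over all peaks, for which the 90th percentile was 7. Position alone does not say which gene an intergenic peak belongs to.

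BHLHE41, SSPN and ITPR2 occupy one stretch of chromosome 12. The SSPN record overlaps that of BHLHE41 by 3.05 kb, and 36.1 kb separate SSPN from ITPR2. Together the 3 loci held 51 peaks over 913 kb, and all 13 peaks of the BHLHE41 locus were also within 100 kb of SSPN. Inside BHLHE41, a gene of 5.01 kb, the summit of 1 peak lay in coding sequence of exon 5 (fold 10.3; 6.41 to 15.8), with an HRE core. On the 3′ side, 5.54 kb past the gene, an intergenic peak of 1435 bp had a fold of 34.0 (26.4 to 43.2). It was also 7.50 kb upstream of the SSPN record. The 121 bases around its summit, printed because they hold more E-boxes and HRE cores than those of any other peak of the loci that is shown, had 73.6% G and C.
Peak past the 3′ end of BHLHE41, chr12:26114427-26114547: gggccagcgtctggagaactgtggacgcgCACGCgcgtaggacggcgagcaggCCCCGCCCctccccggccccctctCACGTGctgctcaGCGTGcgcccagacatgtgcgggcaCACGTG
They contained 2 E-boxes, the motif that BHLHE41 protein binds. In the 100 bp window that was used for counting, an E-box was found at 3 of the 92 locus peaks outside promoters (3.26%; 0.678 to 9.24), compared with 1.79% of all such peaks.

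The SSPN record is 177 kb long, whereas its canonical transcript spans 39.2 kb, and 13 of its 15 peaks lay outside that transcript. The density of 8.46 peaks per 100 kb (4.74 to 13.95) was above 89.3% of the genes of at least 50 kb, of which 89.1% had at least 1 peak. Upstream of the canonical transcript there were 6 peaks with folds from 9.79 to 40.2. The strongest was 42.0 kb upstream of the canonical TSS (40.2; 31.8 to 50.1). The 2 peaks inside the canonical transcript were weak, with folds of 6.70 and 5.15, both in intron 1. Downstream there were 7 peaks with folds from 6.18 to 64.4, and 6 of these lay within 16.04 kb. They included the highest peak of all 106, at chr12:26273715-26276196, with a fold of 64.4 (53.7 to 76.7), a width of 2482 bp and a position above 98.9% of all intronic peaks. It lay 79.3 kb downstream of the canonical TSS of SSPN and 60.4 kb past the 3′ end of ITPR2, and its sequence above has 2 AP-1 sites. The next strongest, of fold 39.7 (31.4 to 49.5), was 92.4 kb downstream of the same TSS. A peak of fold 27.3 (20.5 to 35.7) lay 0.021 kb past the end of the record.

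ITPR2, the longest of the genes at 498 kb, held 24 peaks. Their density of 4.82 per 100 kb (3.09 to 7.17) was above 69.6% of the long genes. Of its 56 canonical introns, 45 had no summit. The strongest intronic peak was in intron 10, at chr12:26691432-26692008, 141 kb into the gene, with a fold of 48.4 (39.2 to 59.2). It was above 96.8% of all intronic peaks. No other summit lay within 25 kb of it, and its 121 bases hold an HRE core with 2 AP-1 sites. The other peaks of the gene were mostly weak. Introns 21 and 22 held 9 peaks within 23.4 kb around the inner promoter, with a median fold of 9.28 and 36.6 at that promoter. Among them, a peak of fold 9.79 (6.01 to 15.2) in intron 21 had an E-box, shown here as the only one inside a risk gene.
ITPR2 intron 21, E-box, chr12:26634009-26634129: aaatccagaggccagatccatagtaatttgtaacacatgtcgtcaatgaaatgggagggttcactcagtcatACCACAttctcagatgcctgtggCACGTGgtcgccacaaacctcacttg
An exonic peak of fold 17.5 (12.2 to 24.4) in the same cluster lay in an exon of the long noncoding RNA ENSG00000234428. A stretch of 130 kb without a summit followed toward the 3′ end. The intronic peaks after the strongest one were in intron 55 (18.6; 13.1 to 25.6), with an AP-1 site, and in intron 45 (15.97; 10.9 to 22.6). In introns 1 and 2, which together hold 6 peaks, the highest fold was 12.4 (8.03 to 18.3). A peak of fold 5.15 lay in coding sequence of exon 57, the last exon.

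DPF3 is 285 kb long and held 10 peaks, or 3.51 per 100 kb (1.68 to 6.45), above 56.1% of the long genes. Intron 1 alone is 122 kb long, 42.9% of the transcript, and had 3 peaks. The strongest of these, at chr14:72801248-72802054, was 92.5 kb downstream of the TSS with a fold of 22.7 (16.6 to 30.4). The others had folds of 7.73 (4.46 to 12.6) and 6.18 (3.34 to 10.7). None of the 3 had an HRE core within 50 bp of the summit in the hg38 reference sequence. The study cites reports that the DPF3 risk variant itself creates such an element. A core made by a variant allele could not be found by this search, and the genotype of the cells was not analysed here. Intron 8, of 44.5 kb, held 4 peaks, including the strongest of the gene at 30.9 (23.7 to 39.7) and a pair that both had a fold of 20.6 (14.8 to 28.0). The annotation ends 8 of the 14 DPF3 transcripts with a last exon inside this intron. The strongest peak lay 2.62 kb upstream of the nearest such exon, which 4 transcripts share. HRE cores were found at 2 of the 9 intronic peaks, compared with 13.0% of all intronic peaks. Both were weak, with folds of 5.67 (2.99 to 9.99) in intron 3 and 5.15 (2.64 to 9.32) in intron 8. The exonic peak, in the untranslated part of exon 11, had a fold of 7.21 (4.08 to 12.0). Outside the gene, a peak 0.412 kb past the 3′ end had a fold of 24.2 (17.9 to 32.1). The strongest peak on the 5′ side, 32.3 kb away, was the promoter of DCAF4 with a fold of 34.0 (26.4 to 43.2). No peak of the DPF3 locus had more than 3 other summits within 25 kb, whereas the highest number was 6 to 12 in the other loci.

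**Figure D3:**
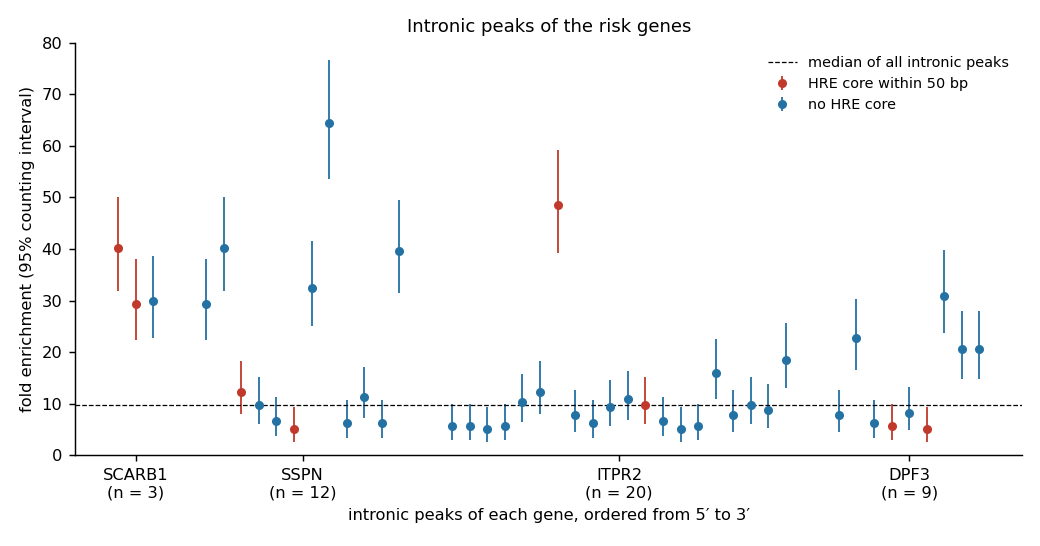
Fold enrichment of the intronic peaks of SCARB1, SSPN, ITPR2 and DPF3 (vertical axis, with 95% counting interval), ordered from the 5′ to the 3′ end of each gene; BHLHE41 had none. Red points have an HRE core within 50 bp of the summit, and the dashed line is the median of all intronic peaks, 9.79. The 3 SCARB1 peaks lie above the line, and the 2 red DPF3 points, at 5.67 and 5.15, below it.

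The motifs were then counted over the loci. With promoters included, an HRE core lay within 50 bp of the summit at 18 of 106 peaks (17.0%; 10.4 to 25.5), compared with 16.0% of all peaks, and an AP-1 site at 18 of 106, compared with 15.7%. Outside promoters, an HRE core was found at 15 of 92 peaks (16.3%; 9.42 to 25.5), and the share over all peaks outside promoters was 13.4%. For AP-1 it was 16 of 92 (17.4%; 10.3 to 26.7) and 18.0%. For TEAD it was 11 of 92 (12.0%; 6.12 to 20.4) and 10.3%, and for RUNX 16 of 92 (17.4%; 10.3 to 26.7) and 14.3%. The HNF1 motif (GTTAAT), a motif of renal and liver epithelium, was found at 5 of 92 (5.43%; 1.79 to 12.2), compared with 4.16%. SP/KLF was found at 2 of 92 and CTCF at 1 of 92, against 0.728% and 2.5%. The ETS motif (CCGGAAGT) was at 0 of 92, where an exact interval reaches 3.93%, and at 0.155% of all peaks outside promoters. Over the 5 loci together, for each of the 9 motifs the interval covered the share over all peaks, so no difference was detectable with this number of sites. By locus, and singled out after the values were seen, RUNX was found at 8 of 21 SSPN locus peaks outside promoters (38.1%; 18.1 to 61.6). The share over all peaks outside promoters was 14.3%. In the BHLHE41 locus, whose peaks all belong to the SSPN locus too, the count was 4 of 12. In the ITPR2 locus it was 7 of 32, and some of these are peaks also counted for SSPN, since these loci share 12 peaks. The count was 3 of 17 in the DPF3 locus and 2 of 31 in that of SCARB1. An HRE core together with an AP-1 site, a pair chosen after the sequences were seen, was found at 4 of 92 (4.35%; 1.20 to 10.8), compared with 2.32% of all peaks outside promoters.

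**Figure D4:**
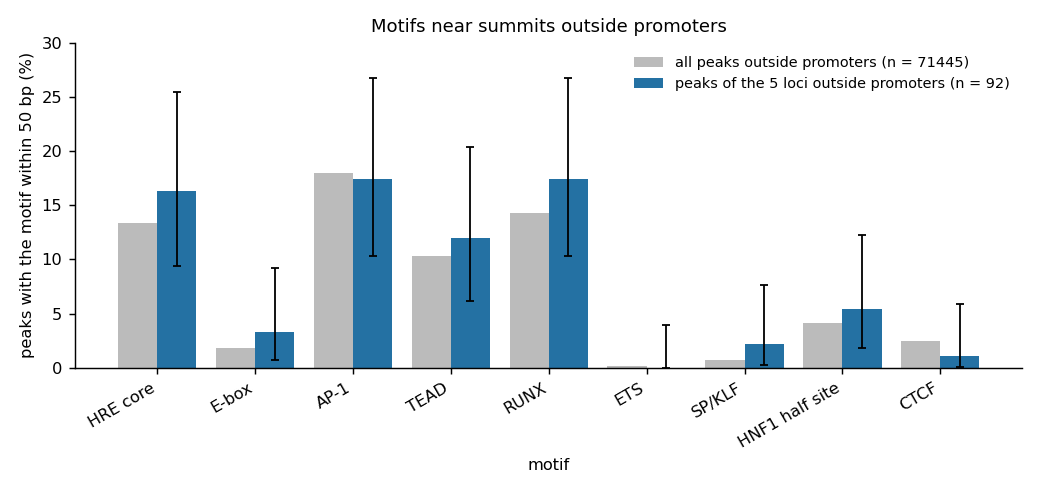
Share of peaks outside promoters with each motif within 50 bp of the summit (vertical axis, percent), for all 71445 such peaks (grey bars) and the 92 of the 5 loci (blue bars, with exact 95% intervals). Each interval covers the grey bar beside it, as for the HRE core at 16.3% and 13.4%.

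Within the genes, 8 of the 44 intronic peaks had an HRE core, compared with 13.0% of all intronic peaks. An AP-1 site was found at 8 of the 44, compared with 18.1%. None of the 9 motifs was found at 18 of the 44, compared with 49.5%. The 8 with an HRE core had folds from 5.15 to 48.4. At SCARB1 they had folds of 40.2 and 29.4, and at ITPR2 48.4 and 9.79. At SSPN they had 12.4 and 5.15, and at DPF3 5.67 and 5.15. A match describes the letters near the summit and does not show that a factor was bound. The pileup was under 15 at 18 of the 44 intronic peaks, compared with 40.1% of all intronic peaks, and the folds of such peaks carry wide intervals.

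The peaks on either side of the 100 kb limit were compared last. At SCARB1 the outermost peak inside it lay at 98.3 kb with a fold of 8.24, and the first outside at 100.9 kb with 10.3. At BHLHE41 they lay at 92.4 kb with 12.4 and at 109.6 kb with 5.67. At SSPN they lay at 94.4 kb with 12.4 and at 103.5 kb with 8.76. The first peak outside was the higher of the pair at SCARB1 and the lower at BHLHE41 and SSPN. At ITPR2 they lay at 95.7 kb with 32.5 and at 105.2 kb with 37.6. At DPF3 they lay at 94.9 kb with 8.76 and at 132.1 kb with 7.21.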

How the data were processed

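Chromatin accessibility of 1 library of 786-O cells with an empty vector was used. According to the methods of the study and the submitters' processing notes, the authors used fastp to trim, Bowtie2 2.3.4.3 to align to hg38, dropped reads with a mapping quality under 30, mitochondrial reads and duplicates, and called peaks with MACS2 2.2.6 (q threshold 0.05) without a local background. The versions are those of the processing notes. The methods of the study state none for ATAC-seq and give other versions of both tools for ChIP-seq. A shift of reads to the Tn5 cut is not stated. The deposited ratio is a fold over the background, the deposited p-values and q-values are −log10 values, and the score as deposited equals the −log10 q-value multiplied by 10 and cut to a whole number, with a lowest score of 52. Peaks were numbered up to 111260 while 88676 were listed, so the list was shortened after calling. With a background pileup of 0.941, pileups were recovered from the folds as whole numbers to within 0.000283, and −log10 p-values recomputed from them differed by at most 0.000255. The pileup, from 9 to 300, is the depth behind each peak. The total read number is unknown.

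Of the peaks, 88615 lay on the 24 primary chromosomes. Summits were assigned with GENCODE release 44 to a promoter of any transcript, then exon, intron or intergenic sequence. Introns were numbered in the canonical transcript. Both strands were searched for motifs up to 50 bp from each summit. All peaks of the loci were counted. Those named were the promoter peaks, the 3 strongest intronic, the exonic and the weakest peaks of each gene, the strongest on each flank, and intronic ones with an HRE core or E-box. Some items of the loci and lists are not reported here. The members, lists and motifs were chosen with earlier results of these data known. Shares carry exact Clopper-Pearson intervals. The functions were tested on simulated data. Python 3.11.15, numpy 2.4.6, pandas 2.3.3, scipy 1.17.1, pysam 0.24.0 and matplotlib 3.10.9 were used. Alternatives were a minimum score, other flanks, placement by interval, other promoter definitions, protein-coding genes only and a wider motif window.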

Additional observations from a re-analysis of the deposited data

How the results depend on the processing

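No paired analysis was possible because a lone library has no partner. Over the 8 summary values, 27 of 35 alternatives stayed within 1.5 times a count or within the counting interval of a share, fold or density. With a score above 200 there were 45 peaks in the loci and 22 inside the genes, or 20.6 per Mb in place of 49.6, and the median fold was 25.8. With a score above 100 there were 35 inside the genes, or 32.8 per Mb. A score minimum removes low folds by construction. Counting 1 kb on either side of the TSS as promoter, 5 of the 5 genes had a promoter peak in place of 3. With motifs searched within 100 bp of the summit, an AP-1 site was found at 29.2% of the locus peaks in place of 17.0%, since the window is wider. The share over all peaks with that window is not reported here, so the 29.2% has no comparison. The share with an HRE core ranged from 16.0% to 25.5% over its alternatives and the intronic share from 41.5% to 48.4%. With a single library, the spread between cultures is not known.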
